A study of Homo sapiens with 9 samples.

Results

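Pyruvate that leaves glycolysis is oxidised in mitochondria by a short chain of enzymes, and the 29 genes that encode this chain were followed here in AGS gastric cancer cells with and without HIF-1α. The genes cover the mitochondrial pyruvate carrier, the pyruvate dehydrogenase complex, the enzymes that exchange pyruvate with malate, oxaloacetate and phosphoenolpyruvate, and enzymes of the tricarboxylic acid (TCA) cycle from citrate synthase to malate dehydrogenase. They were found by gene symbol in the annotation of both array versions, and of several probes of a gene the brightest one present on both versions was used. This gave values for 27 of the 29 genes, out of 12195 genes and unnamed probes tested. SDHB and FH were not analysed here.

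HIF-1α-deficient cells (HIF-) were AGS cells stably carrying a lentiviral small hairpin RNA against HIF1A, and the control cells (SCR) carried a scrambled hairpin. AGS is an established human gastric cancer line, and the series title gives normoxic culture for both groups, so the comparison asks what the loss of HIF-1α does without added hypoxia. Each group had 3 replicates on 9 Illumina BeadChip arrays in all. Replicates 1 and 2 had 1 array per group on the HumanRef-8 version, and replicate 3 had 3 technical arrays of HIF- cells and 2 of SCR cells on the HumanHT-12 version. The labels do not say whether the hairpin lines were clones or pools or how many hairpins against HIF1A were used.

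HIF1A, the targeted gene, had normalized log2 signals of 6.35, 5.33 and 5.95 in HIF- replicates 1, 2 and 3, against 9.02, 7.57 and 7.97 in SCR replicates 1, 2 and 3. The groups did not overlap, and the log2 fold change (HIF- minus SCR) was -2.31 (SE 0.16, adjusted p = 0.00443, limma with Benjamini-Hochberg adjustment, n = 3 each). HIF1A was lower under every alternative setting run, but the adjusted p missed 0.05 under some, such as without replicate 1 (-2.13, adjusted p = 0.0917). Each array detected between 33.6% and 55.6% of its probes at p under 0.01. The epithelial markers EPCAM, KRT8, KRT18, KRT19 and CDH1 were detected on all 9 arrays. Of 8 markers of blood, endothelial and stromal cells, PTPRC, CD3E, VWF, COL3A1 and DCN were detected on 0 arrays, CD14 on 1 HIF- array, PECAM1 on 2 HIF- and 1 SCR arrays, and COL1A1 on 5 HIF- and 3 SCR arrays. The part of the last 3 in the results was not tested. In bulk RNA, a change in the number of cells of a type cannot be told apart from a change in RNA per cell.

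As background, the carrier brings pyruvate across the inner mitochondrial membrane, and the pyruvate dehydrogenase complex turns it into acetyl-CoA. Citrate synthase joins acetyl-CoA to oxaloacetate, and the cycle then returns to oxaloacetate through isocitrate, 2-oxoglutarate, succinyl-CoA, succinate, fumarate and malate, feeding electrons to the respiratory chain. HIF-1 is known to turn pyruvate away from this route under hypoxia, with PDK1, a kinase that inhibits pyruvate dehydrogenase, and LDHA, which makes lactate, as textbook targets.

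Mean log2 fold changes of the pathway's genes lay between -0.34 and 0.27, while differences within replicate 3 ran from -0.88 to 0.89. None of the 27 genes was called at an adjusted p under 0.05, beside 0.115% of all 12195 genes and probes (14 called, 9 higher and 5 lower in HIF- cells). The count over all genes moved between 0 and 185 when 1 replicate was left out, while it stayed at 0 for the 27 genes. Only SUCLG2 had an unadjusted p under 0.05, 1 of 27 genes beside 7.54% of all genes tested, and the lowest adjusted p among the 27 was 0.592 (limma). None was selected by a ranking rule rebuilt from the study's methods, which asks for the top 10% of scaled changes with 1 sign in all 3 replicates and took 0.763% of all genes. Each of the 27 genes had a 95% interval of its log2 fold change inside -1 to 1, as did 11913 of all 12195 genes and probes. The lowest bound among the 27 was -0.69 (IDH2) and the highest 0.74 (PCK2). Changes beyond these bounds lay outside the interval of every gene, while changes inside a gene's own interval remained possible. The intervals use standard errors moderated over all genes (prior degrees of freedom 5.25, residual 2). The differences of IDH2 (-0.88) and PCK2 (0.89) in replicate 3 lay outside their own intervals, so larger changes are not excluded. A p above the threshold does not show that a gene had the same level in both groups.

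On balance the log2 fold changes lay slightly below 0. The median over the 27 genes was -0.11, beside -0.01 over all genes tested, with 8 genes above 0 and 19 below. Among all genes tested, 48.3% lay above 0. Differences of 1 sign in all 3 replicates were seen for 8 genes that were lower in HIF- cells (PDHA1, DLAT, PDHX, CS, IDH3A, SUCLG2, SDHD and MDH1) and for MPC2 alone on the higher side. Over all genes tested, 17.4% were lower and 14.5% higher in all 3 replicates. For SDHD the difference in replicate 1 was below 0.01 in size, so its sign there carries little weight. Small differences also stood behind the signs of IDH3A in replicates 2 and 3 (-0.01 and -0.02). In replicate 3 this held for PDHX (-0.02) and MPC2 (0.02) as well. When arrays were scaled to a common median in place of quantile normalization, PDHX and IDH3A left the lower list and SUCLA2 joined it. The median depended on replicate 1, without which it was -0.02.

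**Figure D1:**
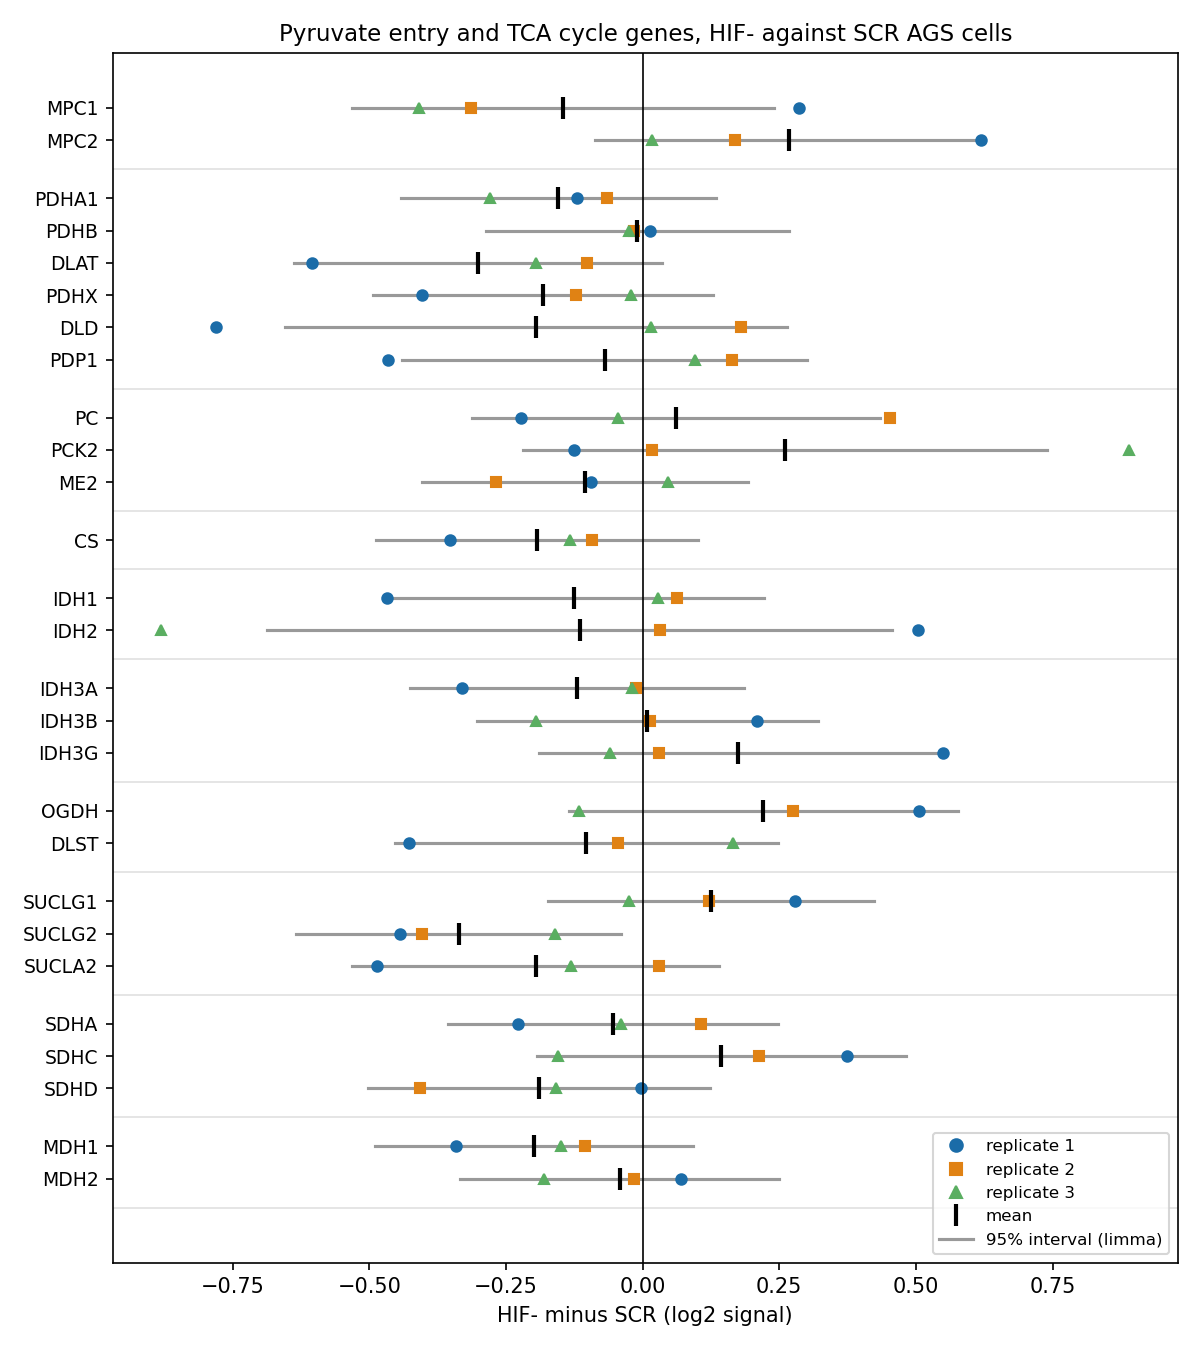
Difference in normalized log2 signal, HIF- minus SCR cells, for the 27 measured genes, grouped by enzyme from pyruvate entry (top) to malate dehydrogenase (bottom). Points are the 3 replicates, black bars their mean and grey lines the 95% interval from limma; the interval of SUCLG2 alone leaves out 0, and IDH2 and PCK2 each have 1 replicate far from the other two.

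The 3 replicates did not share one pattern. In replicate 1, 18 of the 27 genes differed by more than 0.25 on the log2 scale, against 6 in replicate 2 and 4 in replicate 3. Over all genes tested, 45.4% did so in replicate 1, 33.0% in replicate 2 and 19.5% in replicate 3. Replicates 1, 2 and 3 had median differences of -0.13, 0.01 and -0.06 over the 27 genes. The sign was shared by 17 of 27 genes between replicates 1 and 2, by 12 between replicates 1 and 3 and by 16 between replicates 2 and 3, beside 56.7%, 50.5% and 56.4% of all genes. Array version moves with replicate here, since replicate 3 alone was on HumanHT-12, and version and replicate cannot be told apart.

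**Figure D2:**
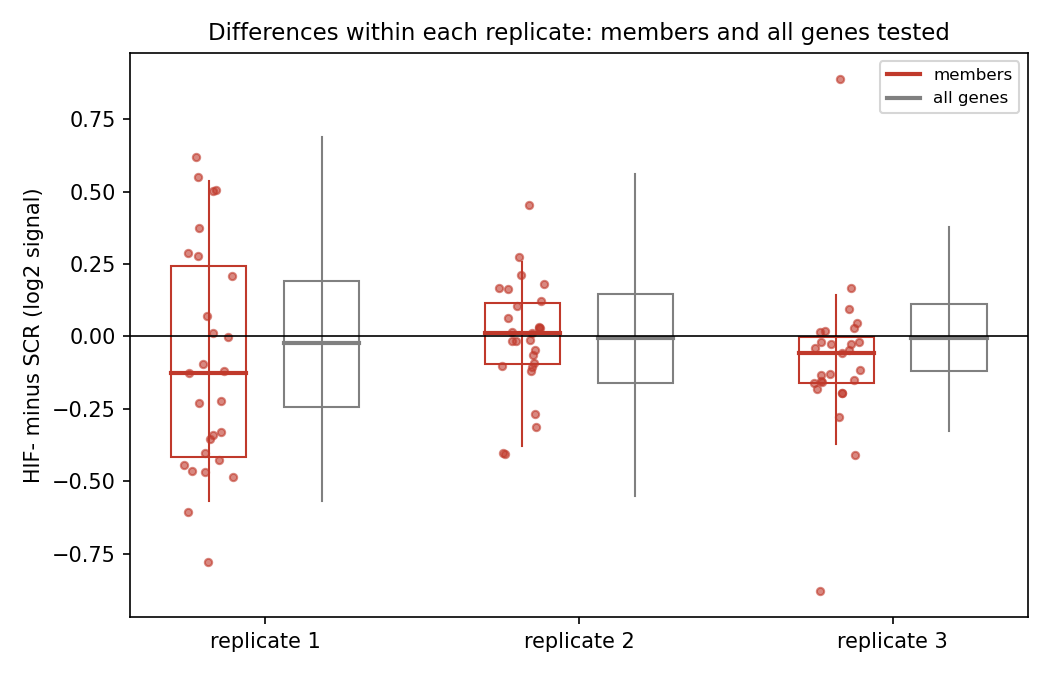
Differences in normalized log2 signal, HIF- minus SCR cells, within each replicate. Red points are the 27 genes; boxes run from the 25th to the 75th percentile with the median inside and lines the 5th to the 95th percentile, red for the 27 genes and grey for all 12195 genes and probes tested. The 27 genes spread most widely in replicate 1, with 18 beyond 0.25 in size against 6 in replicate 2 and 4 in replicate 3, where PCK2 and IDH2 lie furthest from 0.

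At the entry step, the subunits of the mitochondrial pyruvate carrier went different ways. MPC2 had normalized log2 signals of 10.56, 10.27 and 9.24 in HIF- replicates 1, 2 and 3, against 9.95, 10.10 and 9.22 in SCR replicates 1, 2 and 3. It was higher in HIF- cells in each replicate, by 0.62, 0.17 and 0.02, and the groups overlapped across replicates. Its log2 fold change was 0.27 (SE 0.15, 95% interval -0.09 to 0.62, adjusted p = 0.703, limma, n = 3 each). MPC1, the obligate partner of MPC2 in the carrier, had signals of 10.58, 9.59 and 9.72 in HIF- replicates and 10.29, 9.91 and 10.13 in SCR replicates. Its differences in replicates 1, 2 and 3 were 0.29, -0.31 and -0.41, with a log2 fold change of -0.15 (95% interval -0.53 to 0.24), which was -0.36 (adjusted p = 0.718) without replicate 1. MPC1 is given in full because of values seen in replicate 3. There, its technical arrays read 9.74, 9.88 and 9.55 in HIF- cells and 10.24 and 10.02 in SCR cells, so the groups did not overlap.

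All 6 genes listed with the pyruvate dehydrogenase complex, its phosphatase PDP1 included, had log2 fold changes below 0, with a median of -0.17. Of all genes tested, 48.3% lay above 0. DLAT, the E2 acetyltransferase that forms the core of the complex, had signals of 8.74, 8.53 and 8.01 in HIF- replicates 1, 2 and 3, against 9.34, 8.63 and 8.20 in SCR replicates 1, 2 and 3. It was the lower of each pair by 0.61, 0.10 and 0.20, although the HIF- value of replicate 1 exceeded the SCR values of replicates 2 and 3. The log2 fold change of DLAT was -0.30 (SE 0.14, 95% interval -0.64 to 0.04, adjusted p = 0.671, limma, n = 3 each), which is 0.81 of the SCR signal. In replicate 3 its HIF- arrays (7.97, 8.08 and 7.98) all lay below its SCR arrays (8.31 and 8.10), with 8.08 and 8.10 as the nearest arrays.

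The other genes of the complex moved less or in 1 replicate only. PDHA1, the E1 alpha subunit that is switched off by phosphorylation, had a log2 fold change of -0.15 and was lower in each replicate. PDHX, which anchors E3 to the core, had -0.18 and was also lower in each replicate. PDHB, the E1 beta subunit, had -0.01, with no replicate beyond 0.03 in size. DLD, the E3 subunit shared with other 2-oxoacid dehydrogenases, had -0.20, which came from replicate 1 alone (-0.78, against 0.18 in replicate 2 and 0.01 in replicate 3). PDP1, the phosphatase that reactivates the complex, had -0.07 and its signals, between 4.60 and 5.13 over HIF- and SCR samples and arrays, were near background, with detection on 8 of 9 arrays. Over the 6 genes, replicates 1, 2 and 3 had medians of -0.43, -0.04 and -0.02, so the common shift rested on replicate 1.

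Among the enzymes that exchange pyruvate with the cycle's acids, PCK2 carried the largest single difference. PCK2, the mitochondrial phosphoenolpyruvate carboxykinase, had signals of 8.80, 9.53 and 11.07 in HIF- replicates 1, 2 and 3, against 8.93, 9.51 and 10.18 in SCR replicates 1, 2 and 3. Its difference was -0.13 and 0.02 in replicates 1 and 2 and 0.89 in replicate 3, and the log2 fold change was 0.26 (95% interval -0.22 to 0.74). The technical arrays of replicate 3 read 11.07, 10.68 and 11.46 in HIF- cells and 9.24 and 11.12 in SCR cells. The SCR arrays, made from 1 replicate, were thus 1.87 log2 units apart, and the higher of them lay inside the HIF- range. A gap of 1 or more between these arrays occurred for 63 of 12195 genes and probes (0.517%) and for no other of the 27 genes, whose median gap was 0.12. The other probes of PCK2 differed by 0.87 and 0.39 in replicate 3, again with overlapping arrays. In replicates 1 and 2 the former gave -0.35 and -0.12 and the latter -0.28 and -0.25. With all probes averaged, the log2 fold change of PCK2 was 0.12. PCK2 is described here because of these values.

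PC, the pyruvate carboxylase that supplies oxaloacetate, was detected on 2 of 5 HIF- arrays and 2 of 4 SCR arrays and on none of replicate 3. Its log2 fold change was 0.06, but its sign depended on the processing. It was -0.05 with scaling to a common median and -0.02 on the authors' processed values. With all probes averaged it was -0.01, and without replicate 2 it was -0.13. ME2, the mitochondrial malic enzyme, had -0.11, with both signs among the replicates.

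At the head of the cycle, CS, the citrate synthase, was lower in HIF- cells in each replicate (-0.35, -0.09 and -0.13), with a log2 fold change of -0.19 (95% interval -0.49 to 0.10). Its second probe on both versions gave -0.22, 0.01 and -0.33, and a probe on HumanHT-12 alone gave -0.21 in replicate 3. The 3 probes of CS thus all read lower in HIF- cells in replicate 3, while in replicate 2 the second probe was close to 0.

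The NADP-dependent isocitrate dehydrogenases showed how far a mean can hide its replicates. IDH2, the mitochondrial form, had signals of 8.34, 9.003 and 8.10 in HIF- replicates 1, 2 and 3, against 7.84, 8.97 and 8.98 in SCR replicates 1, 2 and 3. Its differences in replicates 1, 2 and 3 were 0.50, 0.03 and -0.88, which average to -0.12 (95% interval -0.69 to 0.46). The SE of 0.24 was the largest of the 27 genes. On the technical arrays of replicate 3, IDH2 read 7.997, 8.22 and 8.07 in HIF- cells and 8.97 and 8.98 in SCR cells. Unlike PCK2, its SCR arrays differed by only 0.01, and no HIF- array came near them, so the technical spread was far below the difference within that replicate. IDH2 is likewise described because of its values. IDH1, the cytosolic form, had -0.13, with -0.47 in replicate 1 and values under 0.07 in size in the others.

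**Figure D3:**
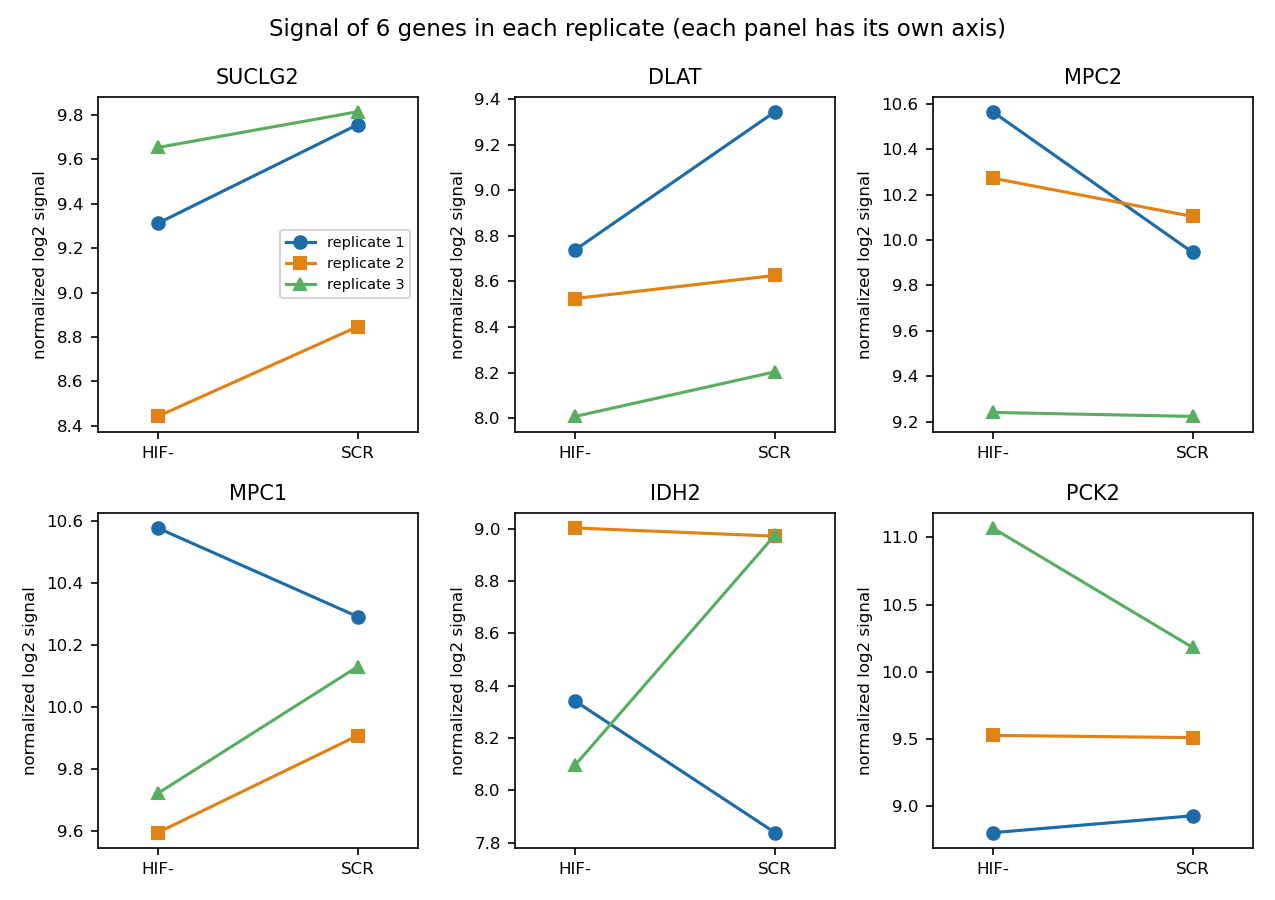
Normalized log2 signal of SUCLG2, DLAT, MPC2, MPC1, IDH2 and PCK2 in HIF- (left) and SCR (right) cells, with 1 line per replicate. SUCLG2 and DLAT have lines of 1 direction with the lower end in HIF- cells, MPC2 has the higher end there, and the lines of IDH2 cross.

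The subunits of the NAD-dependent isocitrate dehydrogenase, which makes 2-oxoglutarate in the cycle itself, did not move together. IDH3A, the catalytic alpha subunit, had a log2 fold change of -0.12 and IDH3B, the beta subunit, 0.01. IDH3G, the gamma subunit, had 0.17, which came from replicate 1 (0.55, against 0.03 in replicate 2 and -0.06 in replicate 3). Of the 2-oxoglutarate dehydrogenase complex, OGDH, its E1 subunit, had 0.22 (0.51, 0.27 and -0.12) and DLST, its E2 subunit, -0.10 (-0.43, -0.05 and 0.17). OGDH and DLST had opposite signs in each replicate. The brightest OGDH probe was chosen; a dimmer probe that also passed the filter on low signals gave -0.06 and was detected on 1 of 9 arrays.

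The succinyl-CoA ligases held the gene nearest to a call. SUCLG2, the beta subunit of the GTP-forming ligase, had signals of 9.31, 8.44 and 9.65 in HIF- replicates 1, 2 and 3, against 9.76, 8.85 and 9.81 in SCR replicates 1, 2 and 3. It was lower in HIF- cells by 0.44, 0.40 and 0.16 in replicates 1, 2 and 3, while the groups overlapped across replicates, since replicate 2 had the lowest signal in both. The log2 fold change of SUCLG2 was -0.34 (SE 0.13, 95% interval -0.63 to -0.04, unadjusted p = 0.0317, adjusted p = 0.592, limma, n = 3 each), or 0.79 of the SCR signal. Its unadjusted p was above 0.05 when any 1 of the 3 replicates was left out. On the arrays of replicate 3 it read 9.55, 9.57 and 9.84 in HIF- cells and 9.75 and 9.88 in SCR cells, so 1 HIF- array lay between the SCR arrays. SUCLA2, the beta subunit of the ATP-forming ligase, had -0.20, mostly from replicate 1 (-0.49). SUCLG1, the alpha subunit that both ligases share, had 0.13, opposite in sign to both beta subunits.

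Succinate dehydrogenase, which is also complex II of the respiratory chain, was measured through 3 of its 4 subunits. SDHA, the flavoprotein, had a log2 fold change of -0.05, and the membrane anchors SDHC and SDHD had 0.14 and -0.19. SDHC was higher in HIF- cells in replicates 1 and 2 (0.37 and 0.21) and lower in replicate 3 (-0.16), where a probe of SDHC on HumanHT-12 alone gave -0.19. For SDHD, the value rested on replicate 2 (-0.41) and replicate 3 (-0.16).

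At the last step, MDH1, the cytosolic malate dehydrogenase, was lower in HIF- cells in each replicate (-0.34, -0.11 and -0.15), with a log2 fold change of -0.20 (95% interval -0.49 to 0.09). MDH2, the mitochondrial enzyme of the cycle, had -0.04 (95% interval -0.33 to 0.25).

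The technical arrays of replicate 3 allow a look at 1 replicate with its own measurement spread, though not at the spread between replicates. There, 10 of the 27 genes had HIF- and SCR arrays that did not overlap, beside 26.4% of all genes tested. MPC1, PDHA1, DLAT, IDH2, IDH3B, OGDH, SUCLA2, SDHD and MDH1 were lower in HIF- cells, and PDP1 was higher. Of all genes, 13.1% were lower and 13.2% higher without overlap. When arrays were scaled to a common median in place of quantile normalization, 5 genes were lower without overlap, beside 10.6% of all genes. These were MPC1, PDHA1, CS, IDH2 and IDH3B. Of the 9 lower genes under quantile normalization, PDHA1, DLAT, SDHD and MDH1 were also lower in both other replicates, but only PDHA1 among them stayed without overlap after scaling. MPC1, IDH2, IDH3B and OGDH were higher in replicate 1.

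**Figure D4:**
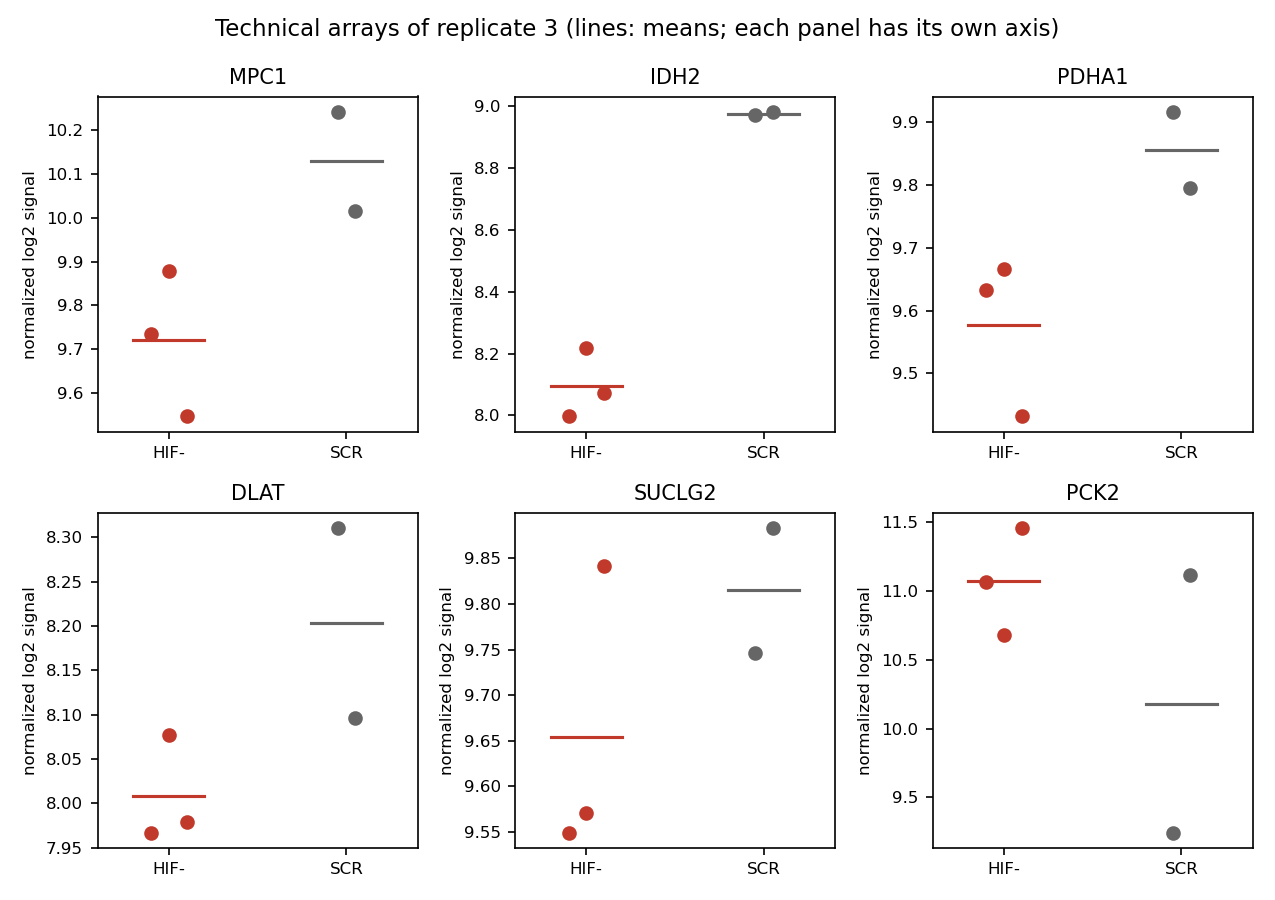
Normalized log2 signal on the technical arrays of replicate 3, with 3 HIF- arrays (left, red) and 2 SCR arrays (right, grey) and lines at their means, for MPC1, IDH2, PDHA1, DLAT, SUCLG2 and PCK2. IDH2 shows close arrays and a wide gap between the groups, while the SCR arrays of PCK2 lie 1.87 log2 units apart.

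The promoters of SUCLG2, DLAT and MPC1 are shown because HIF-1 binds DNA at a short core motif, and these genes had the lowest mean of the 27, the lowest mean of the pyruvate dehydrogenase complex, and the probes furthest apart in replicate 3 at the entry step. Each runs 5′ to 3′ on the gene's strand from 250 bases before to 50 bases after the RefSeq start on GRCh38.p14. Capitals mark the letters ACGTG or GCGTG on either strand, which can overlap one another.

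SUCLG2 (chr3:67654563-67654862, minus strand): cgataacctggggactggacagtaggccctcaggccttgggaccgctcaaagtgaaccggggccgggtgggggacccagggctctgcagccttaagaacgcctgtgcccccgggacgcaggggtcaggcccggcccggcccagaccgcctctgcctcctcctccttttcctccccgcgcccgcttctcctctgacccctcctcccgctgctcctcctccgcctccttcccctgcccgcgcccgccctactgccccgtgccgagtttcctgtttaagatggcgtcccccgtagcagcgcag

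DLAT (chr11:112025158-112025457, plus strand): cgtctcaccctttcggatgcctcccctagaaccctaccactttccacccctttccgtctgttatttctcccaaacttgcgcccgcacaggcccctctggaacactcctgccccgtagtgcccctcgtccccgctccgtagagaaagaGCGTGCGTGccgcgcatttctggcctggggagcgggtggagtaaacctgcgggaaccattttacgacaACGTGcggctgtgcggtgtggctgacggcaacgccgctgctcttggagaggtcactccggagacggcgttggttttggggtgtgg

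MPC1 (chr6:166382891-166383190, minus strand): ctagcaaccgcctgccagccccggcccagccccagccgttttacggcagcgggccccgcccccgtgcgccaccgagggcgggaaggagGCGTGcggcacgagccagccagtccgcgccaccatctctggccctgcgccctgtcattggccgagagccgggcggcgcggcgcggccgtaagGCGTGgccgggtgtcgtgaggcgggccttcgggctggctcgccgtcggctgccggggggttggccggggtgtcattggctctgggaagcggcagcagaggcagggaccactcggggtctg

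The SUCLG2 window held neither motif. The DLAT window held ACGTG once and an overlapping pair of GCGTG, and the MPC1 window held GCGTG at 2 places. Promoter windows were matched for 26 of the 29 genes, with 34 windows in all. ACGTG stood in 6 of these 34 windows, beside 21.4% of 35116 windows of the same length, and GCGTG in 19 of them, beside 36.5%. Some genes had several windows, and SDHB and FH were among the genes matched. The 35116 windows were not matched for base composition, so enrichment was not tested. A match in letters is not a binding site, and absence concerns this window only.

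Beyond the 29 genes, 46 partner genes that feed, drain or regulate the pathway were looked up, and 30 were measured. None was called (0.115% of all genes tested), and their median log2 fold change was -0.08, with 10 above 0 and 20 below. The share of all genes tested that lay above 0 was 48.3%. ACSS1, which makes acetyl-CoA from acetate in mitochondria, had signals lower in HIF- cells by 0.64, 0.02 and 0.98 in replicates 1, 2 and 3, and a log2 fold change of -0.55 (SE 0.19, unadjusted p = 0.0224, adjusted p = 0.557, limma). The value depended on which replicates were kept. It was -0.50 (adjusted p = 0.718, limma) without replicate 1 and -0.33 (adjusted p = 0.677, limma) without replicate 3. Without replicate 2 it was -0.81 (adjusted p = 0.00991, limma), in a fit that called 185 of 11469 genes and probes. That fit had prior degrees of freedom of 478, so its standard errors were set almost wholly by all genes together. ME3, a mitochondrial malic enzyme that uses NADP, had differences of 0.10, -0.82 and -0.67 and a log2 fold change of -0.46 (SE 0.19, unadjusted p = 0.0455, adjusted p = 0.652, limma). ME3 was at -0.25 when all its probes were averaged, and at -0.74 without replicate 1 and -0.28 without replicate 2. These 2 of 30 genes had an unadjusted p under 0.05, beside 7.54% of all genes tested.

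The textbook HIF-1 targets at the branch point did not pass the test either. PDK1 had differences of -0.02, 0.27 and -0.02 and a log2 fold change of 0.07 (SE 0.13, adjusted p = 0.868, limma), with detection on 4 of 9 arrays. LDHA had differences of -0.32, 0.00 and -0.12 and a log2 fold change of -0.15 (SE 0.13, adjusted p = 0.742, limma). Both depended on the normalization: with scaling to a common median PDK1 was at 0.00055 and LDHA at -0.047, and on the authors' processed values they were at 0.020 and -0.087. The other measured kinases, PDK2 and PDK3, had -0.09 and -0.01. Of the lists by role, the 5 measured assembly and lipoylation genes had a median of 0.06, and the 3 measured lactate genes (LDHA, LDHB and LDHD) had -0.15, among which LDHD was detected on only 2 of 5 HIF- and 2 of 4 SCR arrays.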

How the data were processed

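Gene expression was measured on 9 Illumina BeadChip arrays. For each probe and array the authors deposited log2 signals with p-values of detection, and separate processed tables of normalized log2 values; their methods name RMA and the beadarray package. The tables called non-normalized hold log2 values, so these were taken back to the linear scale. Background correction used nec of limma 3.58.1 (R 4.3.3) with an offset of 16, quantile normalization followed within each version, log2 was taken again and the technical arrays of replicate 3 were averaged. Of 24525 common probes, 14686 were kept and 9839, below the median of the sample in all 6 samples, were discarded. The brightest probe represented each gene (11073 named genes and 1122 unnamed probes). Symbols came from the platform annotation, updated through the gene table of GRCh38.p14; 16 probes with conflicting symbols stayed unnamed.

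The test was limma's lmFit and eBayes (prior degrees of freedom 5.25). Replicate entered as a block, because HIF- and SCR arrays of 1 replicate lay on the same BeadChip and the study compared within each experiment. Deviations of the groups in the same replicate correlated at 0.623, 0.805 and 0.850; the shared array version alone can produce this. Fold changes are HIF- minus SCR on the log2 scale. The study's methods call the replicates biological and the experiments independent, while the labels name no separate cultures. With the block, the p-values rest on the spread of the HIF- minus SCR differences between the replicates, moderated over all genes. Arrays correlated at most at 0.970 (Spearman, HumanRef-8) and 0.899 (HumanHT-12), so none repeated another. The number of arrays limits the precision.

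All measured genes of the pathway are named. Full values are given for those with an unadjusted p under 0.05, or with 1 sign in all 3 replicates and a log2 fold change of at least 0.25 in size, and for partner genes with an unadjusted p under 0.05; PDK1 and LDHA are given whatever their values. Genes and lists were chosen with earlier results of these data known. Alternatives in background, normalization, filter, probe, block, test and left-out replicates were run. Promoters came from RefSeq.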

Additional observations from a re-analysis of the deposited data

Results flagged for a closer look

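A second MPC1 probe, present on the HumanHT-12 version alone and so outside the comparison of all replicates, was lower in HIF- cells by a log2 difference of -0.62 in replicate 3. It averaged 7.49 in HIF- cells (3 arrays, 7.31 to 7.83) and 8.11 in SCR cells (2 arrays, 7.89 to 8.34), without overlap and with detection on all 5 arrays. The difference has no biological replicate, since the other replicates were on the version without this probe. The same kind of difference (arrays apart, 0.5 or more in size, detected) was found for 140 of 22798 probes on HumanHT-12 alone (0.614%). Of the 8 probes of the pathway's genes on that version alone, only this one met these limits.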

How the results depend on the processing

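None of the 27 genes was called under any alternative run. Over all genes, 14 were called, against 3 with a background offset of 50, 50 with scaling to a common median, 30 with quantile normalization over all arrays, 9 with the first technical array only, 40 at an adjusted p under 0.1, and 0 both without the filter on dim probes (1345 at an unadjusted p under 0.05) and by the methods' t-test (116 at an unadjusted p under 0.05). Without the replicate block, 2 genes were called both with array version as covariate and with no covariate; without 1 replicate, limma called between 0 (replicate 1 left out; 760 at an unadjusted p under 0.05) and 185 (replicate 2 left out), and 67 without replicate 3. HIF1A kept its direction but missed the threshold with offset 50 (-1.81, adjusted p = 0.0662), without the filter (-2.31, 0.462), without the replicate block (-2.31, 0.99996 with array version and 0.783 with no covariate) and without replicate 1 (-2.13, 0.0917; without single replicates the range was -2.46 to -2.13). The median of the 27 genes lay between -0.13 and -0.021 (replicate 1 left out) without single replicates. The count of 1 gene at an unadjusted p under 0.05 (SUCLG2) was 0 without the block (either form), by the methods' t-test and without replicate 2 or 3; without replicate 1 it was 1, but the gene was MPC1 (range 0 to 1). Partner genes called ranged from 0 to 1 without single replicates; ACSS1 was called without replicate 2. Counts under other normalizations were chosen after seeing the data. Lower in all replicates were 7 or 8 genes, beside 17.4% to 17.9% of all genes. The genes lower without overlap in replicate 3 numbered between 5 with scaling (10.6% of all genes) and 10 with quantile normalization over all arrays (13.9%). The reported count there was 9 (13.1%). Of 31 named genes, 18 kept their sign in every alternative; the causes were not tested. Without the block, other calls were unchanged at 0 for the pathway and partner genes.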
